A study of Mus musculus with 12 samples.

Results

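The receptors and adaptors that set a marrow cell on the way to becoming an osteoclast, the cell that resorbs bone, were taken from the deposited count table by symbol, 9 genes in all: Tnfrsf11a, Csf1r, Fcer1g, Tyrobp, Oscar, Trem2, Itgb3, Traf6 and Src. All 9 symbols were found among the 55291 in the table, and 8 of them passed the filter on low counts that left 15674 genes for testing. Oscar did not pass it. The series compared the RNA of mouse bone marrow between genotypes and between mice with and without short-chain fatty acids (SCFA), which the labels do not name individually.

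Osteoclasts arise from myeloid precursors that receive M-CSF through its receptor Csf1r (c-FMS) and RANKL through Tnfrsf11a (RANK). RANK recruits the adaptor Traf6, which passes the signal to NF-kB and the MAP kinases. A second, costimulatory signal runs through receptors without signalling tails of their own, such as Oscar and Trem2, which pair with the adaptors Fcer1g (FcRγ) and Tyrobp (DAP12). Those adaptors carry ITAMs, tyrosine motifs that recruit the kinase Syk and lead to the calcium signals that raise Nfatc1. Later, the αvβ3 integrin, whose β chain is Itgb3, and the kinase Src organise the cell's attachment to bone and its ruffled border. Itgb3 is also the β chain of the platelet integrin αIIbβ3, so its RNA is no marker of precursors alone.

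Marrow was taken at 8 weeks of age, cultured for about 24 hours in alpha-MEM, and the non-adherent cells, labelled progenitors, were sequenced in bulk. The first group was control untreated, for which the labels give the genotype only as control. The second was homozygous untreated, labelled STAT3Cstopfl/fl CD4Cre in 2 libraries and R26STAT3Cstopfl/fl CD4Cre in 1. In both spellings a floxed stop precedes STAT3C, a constitutively active STAT3, and the Cre is driven by CD4, so that its main targets are T lineage cells rather than the myeloid cells in which the 9 genes act. Control SCFA and homozygous SCFA mice had the same genotypes and received SCFA in their drinking water. Each group held 3 libraries. The labels do not tie each library to a mouse of its own, so the p-values measure only the spread between these libraries, which may be technical. All untreated libraries carry one date and all SCFA libraries another, so SCFA and the date cannot be told apart.

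Total counts ran from 16954355 to 20748995 per library. Every pair of libraries within a group differed by more than counting noise. On the first principal component, which held 24.7% of the variance, the homozygous SCFA libraries lay at 59.8 to 70.6 and the 6 control libraries at -39.3 to -34.5. The control untreated libraries were spread on the second component, with 1 at 4.63, 2 at 87.4 and 3 at 41.5. Their chi-square per degree of freedom was 96.2 between 1 and 2, 44.7 between 1 and 3 and 31.7 between 2 and 3, and calls that changed without any of them are given below. Progenitor markers chosen after their values were seen were measured in every library (Kit 44.5 to 77.0 and Cd34 46.5 to 92.5 CPM, counts scaled to 1e6 per library), except Mecom, which had 0 to 29 counts. Markers of late neutrophils summed to 28179 to 69144 CPM, so the cells were mixed. Stat3, the targeted gene, was at 357 ± 82.0 CPM in control untreated and 294 ± 27.3 in homozygous untreated libraries (SD, n = 3 each; log2 fold change -0.28, adjusted p = 0.221). Without control untreated 1 that difference was called, lower in homozygous libraries (edgeR adjusted p = 0.0199). Under SCFA Stat3 was at 239.7 ± 13.9 in control and 363 ± 40.3 in homozygous libraries (log2 fold change 0.60, adjusted p = 0.0157). That call was lost without control SCFA 3 (0.0657) or homozygous SCFA 3 (0.0606), and the counts do not separate the transgene's RNA from that of the native gene.

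All 9 are protein-coding genes (GENCODE M21, mm10). On chromosome 1 lie Tnfrsf11a (105780718 to 105847981, plus strand) and Fcer1g (171229572 to 171234365, minus), and on chromosome 7 Oscar (3609813 to 3616157, minus) and Tyrobp (30413760 to 30417585, plus). Traf6 (101678429 to 101701669) and Src (157418444 to 157471862) lie on the plus strand of chromosome 2. Itgb3 lies on chromosome 11 (104608000 to 104670476, plus) and Trem2 on chromosome 17 (48346401 to 48354147, plus). Csf1r, on chromosome 18, is the only one of the 9 that overlaps another annotated gene.

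Levels between genes were compared as CPM per kilobase of merged exon length, averaged over the 12 libraries. The adaptors were the highest of the 9, with Tyrobp at 1816 and Fcer1g at 1198, against 3.76 for Trem2 and 0.0309 for Oscar. Csf1r followed at 81.7, then Itgb3 at 25.7, Traf6 at 10.7, Tnfrsf11a at 4.27 and Src at 0.618. The merged length counts every annotated exon, so a gene with long rarely used exons has a low value on this scale. In these mixed cells a lower value can mean fewer cells of a type or less RNA per cell, and the 2 cannot be told apart.

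**Figure D1:**
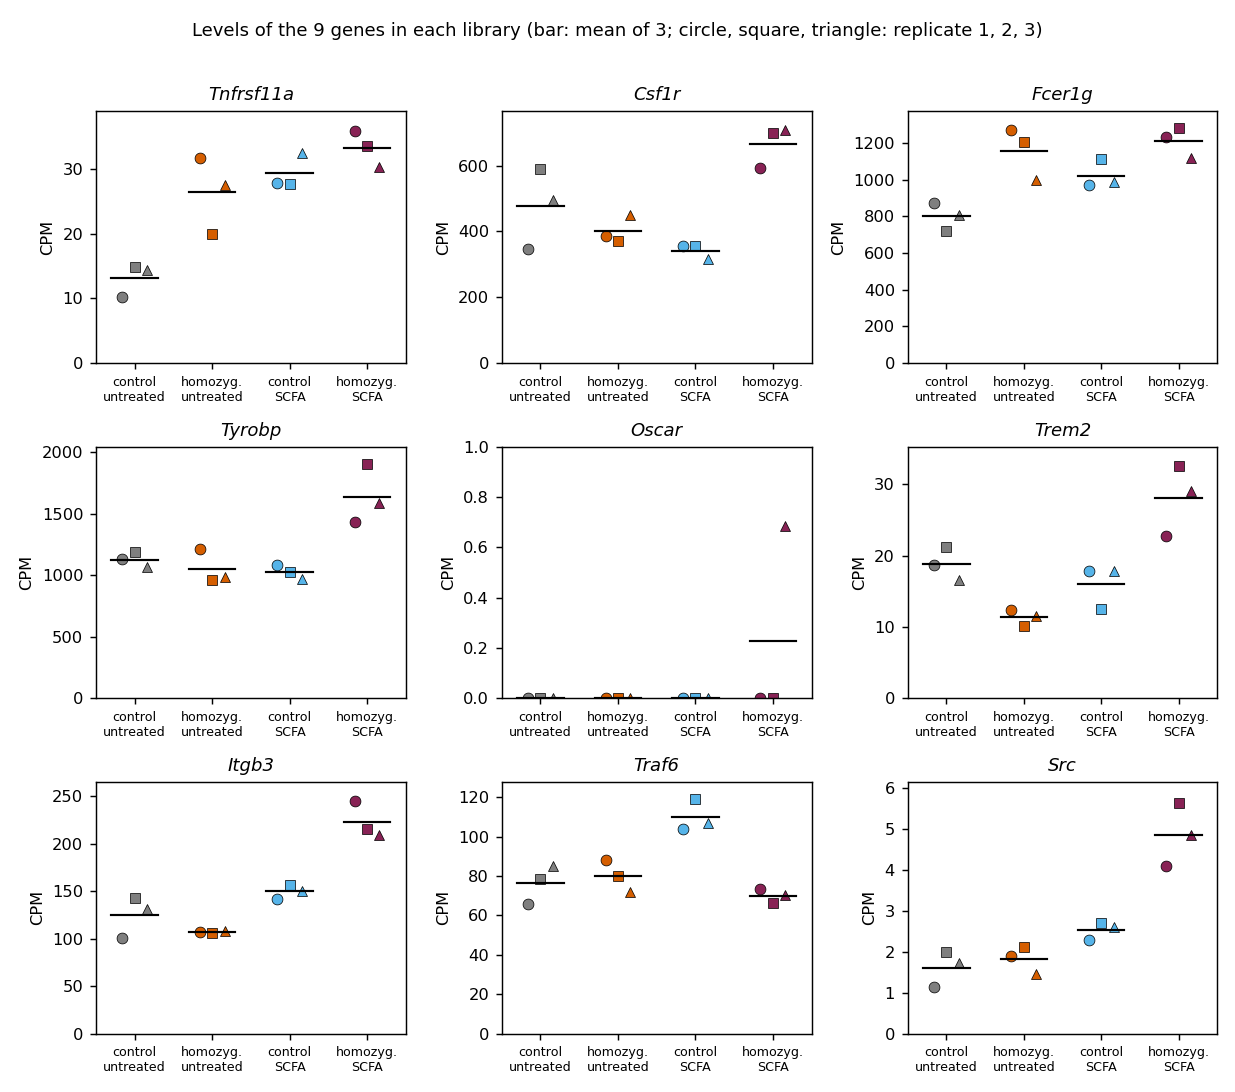
Level of each of the 9 genes in each library (CPM, y axis) for the 4 groups (x axis), with a bar at the mean of 3 libraries. All 3 homozygous SCFA libraries lie above the other 9 for Csf1r, Tyrobp, Trem2, Itgb3 and Src, whereas Tnfrsf11a and Fcer1g are lowest in the control untreated libraries and Traf6 is highest in the control SCFA libraries.

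Csf1r, Tyrobp, Trem2, Itgb3 and Src, 5 of the 8 tested genes, were higher in every homozygous SCFA library than in any of the other 9, a position held by 2.83% of all tested genes. Control untreated libraries lay below all others for Tnfrsf11a and Fcer1g, as for 3.34% of tested genes. Traf6 was highest in the control SCFA libraries (3.43% of tested genes) and Trem2 lowest in the homozygous untreated ones (1.56%). The groups that differed thus depended on the gene, and each is described in the order of its role.

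In untreated mice 2 of the 8 genes were called higher with genotype (6.69% of all tested genes) and 1 lower (8.13%), a total of 3 where 14.8% of all genes were called. Under SCFA 4 were called higher (8.89% of all genes) and 1 lower (8.47%), 5 in all against 17.4%. Their median genotype difference was -0.02 on the log2 scale without SCFA, against -0.04 over all genes, and 0.63 under SCFA, against -0.02. Genotype groups did not overlap for 3 genes without SCFA (32.3% of all genes) and for 7 under it (39.5%). With SCFA in control mice, 3 were called higher (8.89%) and 1 lower (13%), 4 against 21.9% of all genes, and 4 did not overlap (38.5%). With SCFA in homozygous mice, 5 were called higher (3.96%) and none lower (5.61%), against 9.58% of all genes, and the same number did not overlap (30.1%). The interaction, the change of the genotype difference with SCFA, was called for 6 (25.1% of all genes), with 4 higher (13.6%) and 2 lower (11.6%). The SCFA comparisons and the interaction share libraries with the genotype comparisons.

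For 3 of the genes, Tnfrsf11a, Trem2 and Traf6, the difference between genotypes changed with SCFA and RefSeq gives a promoter, so their sequences are shown. They span 250 bases before to 50 after the annotated start (RefSeq, GRCm38.p6), 5′ to 3′ along the gene's strand. Capitals mark GAGGAA, the core of sites bound by PU.1, the transcription factor of myeloid cells, or its reverse complement; bases in lower case are the rest.
Tnfrsf11a, chr1:105780473-105780772, plus strand: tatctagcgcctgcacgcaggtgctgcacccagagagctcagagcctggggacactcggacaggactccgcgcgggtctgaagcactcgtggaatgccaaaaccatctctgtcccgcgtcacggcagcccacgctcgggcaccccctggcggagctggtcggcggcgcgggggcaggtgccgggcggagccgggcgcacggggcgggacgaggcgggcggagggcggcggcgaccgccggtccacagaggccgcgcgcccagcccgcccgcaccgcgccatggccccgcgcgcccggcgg
Trem2, chr17:48346151-48346450, plus strand: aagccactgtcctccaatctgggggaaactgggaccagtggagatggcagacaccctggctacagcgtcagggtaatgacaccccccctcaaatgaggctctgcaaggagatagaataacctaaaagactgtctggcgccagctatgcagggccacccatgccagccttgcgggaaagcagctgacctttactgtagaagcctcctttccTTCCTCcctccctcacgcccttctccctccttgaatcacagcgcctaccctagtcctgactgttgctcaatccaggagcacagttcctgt
Traf6, chr2:101678170-101678469, plus strand: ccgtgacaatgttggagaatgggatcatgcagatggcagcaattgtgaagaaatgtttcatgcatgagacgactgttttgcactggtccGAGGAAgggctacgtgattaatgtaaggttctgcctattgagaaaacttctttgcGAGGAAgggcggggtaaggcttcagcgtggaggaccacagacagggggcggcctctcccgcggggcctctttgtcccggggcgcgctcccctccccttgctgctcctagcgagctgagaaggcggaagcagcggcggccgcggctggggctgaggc
Traf6 held GAGGAA at 2 places on its own strand, and Trem2 held it once on the opposite strand, from 40 to 35 bases before the start. Tnfrsf11a held none. Of the 6 members with a promoter entry, the others being Fcer1g, Oscar and Src, 4 held the motif, against 28.3% of all 32851 promoters of the same length. The STAT motif TTCNNNGAA, searched on both strands, was in none of the 6, against 8.3% of all promoters. In all, 4 motifs were searched. Those of the interferon response (3.44% of all promoters) and NF-kB (1.63%) were also in none of the 6. Letters that match are not a site, and their absence from these 300 bases says nothing of STAT3 elsewhere.

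Tnfrsf11a, the receptor for RANKL on osteoclast precursors, rose with genotype in untreated mice and with SCFA in control mice. It was at 10.3, 14.9 and 14.3 CPM in the control untreated libraries and at 31.8, 19.9 and 27.5 CPM in the homozygous untreated ones. Under SCFA the controls were at 27.9, 27.8 and 32.5 CPM and the homozygous mice at 35.9, 33.6 and 30.3 CPM. Control untreated libraries were thus the only low ones, and the other 3 groups overlapped. Without SCFA, Tnfrsf11a rose with genotype by 1.00 ± 0.19 on the log2 scale (SE; edgeR quasi-likelihood test, adjusted p = 0.00496). In control mice it rose with SCFA by 1.15 ± 0.20, a 2.23-fold difference (adjusted p = 0.00431). Under SCFA the genotype difference was 0.18 ± 0.19 (adjusted p = 0.566), and within homozygous mice the SCFA difference was 0.33 ± 0.19 (0.309). The interaction was -0.82 ± 0.27 (adjusted p = 0.039). That call was lost without control untreated 1 (0.0934) or 3 (0.0631), homozygous untreated 1 (0.0929) or 3 (0.106), control SCFA 1 (0.0509), 2 (0.0548) or 3 (0.0884), and homozygous SCFA 2 (0.075) or 3 (0.0875).

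Csf1r, the M-CSF receptor that monocytes and their precursors need to survive, was highest in homozygous SCFA mice. It was at 348, 591 and 494 CPM in control untreated and at 387, 372 and 450 CPM in homozygous untreated libraries. The SCFA-treated controls were at 354, 355 and 315 CPM, and the SCFA-treated homozygous mice at 592, 698 and 709 CPM. Every homozygous SCFA library was above all others, although the lowest of them exceeded control untreated 2 by little. Under SCFA, Csf1r rose 1.95-fold with genotype (log2 fold change 0.96 ± 0.16, adjusted p = 0.00125). Within homozygous mice it rose 1.65-fold with SCFA (0.73 ± 0.16, adjusted p = 0.0123), a call lost without homozygous untreated 2 (0.0567) or homozygous SCFA 3 (0.0508). Without SCFA the genotype difference was -0.25 ± 0.16 (adjusted p = 0.314), but it was called at -0.45 (adjusted p = 0.0192) without control untreated 1, the lowest of its group.

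The change of Csf1r with SCFA thus had the opposite sign in the 2 genotypes. In control mice its level fell by 0.48 on the log2 scale (SE 0.16, adjusted p = 0.0469), yet control untreated 1 lay within the SCFA range. This decrease lost its call without control untreated 2 (0.18) or 3 (0.107), control SCFA 1 (0.0839), 2 (0.0996) or 3 (0.179), homozygous untreated 1 (0.0672) or 2 (0.0624), and homozygous SCFA 1 (0.0508), 2 (0.0643) or 3 (0.0676), with RLE scaling (0.0514) and with only the compared libraries (0.107). The interaction was 1.21 ± 0.23 (adjusted p = 0.00324) and kept its call in every fit. Csf1r overlaps Hmgxb3 on the opposite strand, and as the strand setting of the counting is not given, reads of the overlap cannot be assigned.

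Cell type markers were set beside Csf1r and Tnfrsf11a. For the marker counts here and below, 6.69% of all tested genes were called higher and 8.13% lower with genotype without SCFA. With genotype under SCFA these shares were 8.89% and 8.47%, and with SCFA in control mice 8.89% and 13%. The 11 monocyte markers other than Csf1r summed to 4513 to 5266 CPM in control untreated, 7524 to 8035 in homozygous untreated, 5868 to 6669 in control SCFA and 7177 to 8247 CPM in homozygous SCFA libraries. Without SCFA 7 of the 11 were higher in homozygous mice (Ccr2, F13a1, Klf4, Ly6c2, Mpeg1, Ms4a4c and Ms4a6c) and Irf8 was lower. Under SCFA 3 were higher, Cd14, F13a1 and Fn1, and none was lower. Csf1r is also made by macrophages, whose 12 markers had mean sums of 1545 CPM in control and 1160.1 CPM in homozygous libraries without SCFA, and of 1328 and 2377 CPM with it. Apoe alone was a large part of them, at means of 805 and 355 CPM without SCFA and 487 and 1233 CPM with it. Without SCFA 4 of the 12 were called lower with genotype, Apoe among them, and 2 higher. In the macrophage sum, as for Csf1r and for Tyrobp below, the homozygous SCFA libraries were the highest. The part of these cells in the values of Tnfrsf11a, Csf1r and Tyrobp was not tested.

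**Figure D2:**
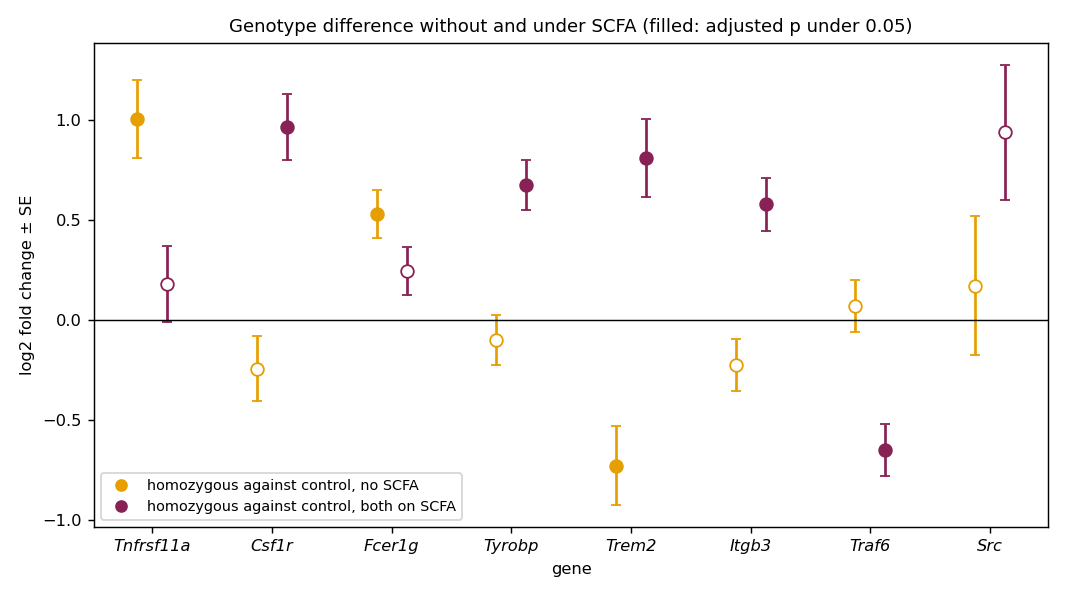
Genotype difference of each tested gene (log2 fold change ± SE, y axis) without and under SCFA, with filled points for adjusted p under 0.05. Tnfrsf11a moves from 1.00 to 0.18, whereas Csf1r, Tyrobp, Trem2 and Itgb3 are at or below -0.10 without SCFA and at or above 0.58 under it.

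Fcer1g and Tyrobp, the ITAM adaptors, followed different groups. Fcer1g, the γ chain shared by Fc receptors and OSCAR, was at 874, 718 and 809 CPM in control untreated and at 1268, 1202 and 997 CPM in homozygous untreated libraries. Control SCFA libraries were at 968, 1110.1 and 986 CPM and homozygous SCFA libraries at 1231, 1279 and 1117 CPM. Only the control untreated libraries stood apart from the rest, as for Tnfrsf11a. Without SCFA, Fcer1g rose with genotype by 0.53 ± 0.12 on the log2 scale (adjusted p = 0.0116), a call lost without homozygous untreated 1 (0.0595) or 2 (0.0528) or with only the compared libraries (0.0608). In control mice it rose with SCFA by 0.35 ± 0.12 (adjusted p = 0.0482), but without any library other than control untreated 1 that p lay above the threshold, at 0.0574 to 0.196. It did so too with no filter on low counts (0.181) and with only the compared libraries (0.106). Under SCFA, its genotype difference of 0.24 ± 0.12 was not called (adjusted p = 0.180) although the groups did not overlap. The interaction was -0.29 ± 0.17 (adjusted p = 0.226).

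Neutrophils, mast cells and basophils also express Fcer1g. The 10 late neutrophil markers summed to 28179 to 48755 CPM in control untreated, 49211 to 69144 in homozygous untreated, 53517 to 58455 in control SCFA and 54711 to 65993 CPM in homozygous SCFA libraries. As for Fcer1g, the 3 control untreated libraries were the lowest. S100a8 alone was a large part, at means of 19945 and 37409 CPM without SCFA (control and homozygous) and 35828 and 37680 with it. Without SCFA 5 of the 10 were higher and 2 lower with genotype, and with SCFA in control mice 5 were higher and 2 lower. The 9 mast cell and basophil markers summed to 956 to 1107 CPM in control untreated, 1355 to 1550 in homozygous untreated, 806 to 864 in control SCFA and 1426 to 1475 CPM in homozygous SCFA libraries. Without SCFA 6 of the 9 were higher in homozygous mice, and under SCFA 5, with none lower in either. In control mice, where Fcer1g was called higher with SCFA, 2 of the 9 were higher and 3 lower. The part of either cell type in the values of Fcer1g was not tested.

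Tyrobp, the adaptor of TREM2 and many other myeloid receptors, was highest in homozygous SCFA mice. It was at 1133, 1185 and 1064 CPM in control untreated and at 1209, 961 and 986 CPM in homozygous untreated libraries. Control SCFA libraries were at 1081, 1029.8 and 969 CPM, and homozygous SCFA libraries at 1431, 1900.4 and 1585 CPM. The first 3 groups overlapped and the homozygous SCFA libraries were above them all. Under SCFA, Tyrobp rose with genotype by 0.67 ± 0.13 (adjusted p = 0.00226), and in homozygous mice it rose with SCFA by 0.64 ± 0.12 (0.00492). The genotype difference without SCFA was -0.10 ± 0.12 (adjusted p = 0.617), and the interaction was 0.77 ± 0.18 (0.0076). These 3 calls held in each fit that left out 1 library.

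Trem2 and Oscar are the receptors that signal through these adaptors. Trem2, a lipid-binding receptor of macrophages, fell 1.66-fold with genotype in untreated mice and rose 1.75-fold under SCFA. It was at 18.7, 21.1 and 16.6 CPM in control untreated and at 12.4, 10.1 and 11.6 CPM in homozygous untreated libraries. Under SCFA the controls were at 17.8, 12.5 and 17.9 CPM and the homozygous mice at 22.7, 32.5 and 29.0 CPM. The homozygous libraries were thus the lowest of all without SCFA and the highest of all with it. The genotype difference without SCFA was -0.73 ± 0.20 (adjusted p = 0.0259), a call lost without control untreated 2 (0.089), homozygous untreated 1 (0.0611) or homozygous untreated 2 (0.114), or with only the compared libraries (0.0616). Under SCFA it was 0.81 ± 0.19 (adjusted p = 0.0107), and 0.71 without homozygous SCFA 2 (0.0502). Within homozygous mice, Trem2 rose 2.47-fold with SCFA (1.30 ± 0.20, adjusted p = 0.00062). The interaction, 1.54 ± 0.28 (adjusted p = 0.00239), was the largest of the 8 genes tested.

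Of the 12 macrophage markers, Apoe and the complement genes C1qa, C1qb and C1qc were called in the same direction as Trem2, lower with genotype without SCFA and higher under it. Cd68 and Hmox1 were also higher under SCFA. Adgre1 and Vcam1 were higher without SCFA, so that 2 of the 12 rose there, and none of the 12 was lower under SCFA. With SCFA in control mice 4 of the 12 were higher (Adgre1, Mertk, Mrc1 and Vcam1) and Apoe was lower, where the difference of Trem2 was -0.23 (adjusted p = 0.415). Summed levels of the 12 were 1397 to 1698 CPM in control untreated, 1081 to 1215 in homozygous untreated, 1263 to 1383 in control SCFA and 2036 to 2608 CPM in homozygous SCFA libraries. Apoe alone was a large part of these sums, at means of 805, 355, 487 and 1233 CPM in the same order of groups. Whether the macrophage signal set the level of Trem2 was not tested.

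Oscar, whose product binds collagen and pairs with FcRγ, had 0 counts in 11 libraries. Homozygous SCFA 3 alone had 12 counts, or 0.684 CPM. A count of 0 allows up to 3 counts in a library, so Oscar was not detectable at this depth in the other libraries, and no fold change was computed.

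Itgb3, the integrin chain, rose with SCFA in homozygous mice and with genotype under SCFA. Its levels were 101, 143 and 132 CPM in control untreated, and 108, 106 and 108 CPM in homozygous untreated libraries. Control SCFA libraries were at 142, 156 and 151 CPM and homozygous SCFA libraries at 245, 216 and 209 CPM. The homozygous SCFA libraries were above all others, and the control SCFA range met that of the untreated controls at 142 to 143 CPM. Itgb3 rose 2.08-fold with SCFA in homozygous mice (log2 fold change 1.06 ± 0.13, adjusted p = 1.05e-04) and 1.49-fold with genotype under SCFA (0.58 ± 0.13, adjusted p = 0.00794). Without SCFA the genotype difference was -0.23 ± 0.13 (adjusted p = 0.249), but it was called, at -0.38 (adjusted p = 0.0276), without control untreated 1. The interaction was 0.80 ± 0.19 (adjusted p = 0.00806).

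Megakaryocyte and platelet markers summed highest in the same libraries. Their 11 markers summed to 575 to 634 CPM in control untreated, 551 to 686 in homozygous untreated, 754 to 828 in control SCFA and 1184 to 1372 CPM in homozygous SCFA libraries. Under SCFA 7 of the 11 were higher in homozygous mice and none was lower, among them Itga2b, the αIIb chain that pairs with Itgb3 on platelets. Itga2b was at 206 ± 33.3 CPM in homozygous SCFA and 93.6 ± 17.4 CPM in control SCFA libraries (SD, n = 3 each; log2 fold change 1.14, SE 0.22, edgeR adjusted p = 0.00288). Without SCFA, Ppbp was higher with genotype, and Gp5, Itga2b and Vwf were lower. With SCFA in control mice Gp1ba, Pf4 and Ppbp were higher, and Itga2b was lower (log2 fold change -0.69, edgeR adjusted p = 0.0378). Pf4 and Ppbp were a large part of the sums, at means of 490 and 368 CPM in homozygous SCFA libraries. The share of Itgb3 RNA that came from megakaryocytes and platelets was not tested.

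**Figure D3:**
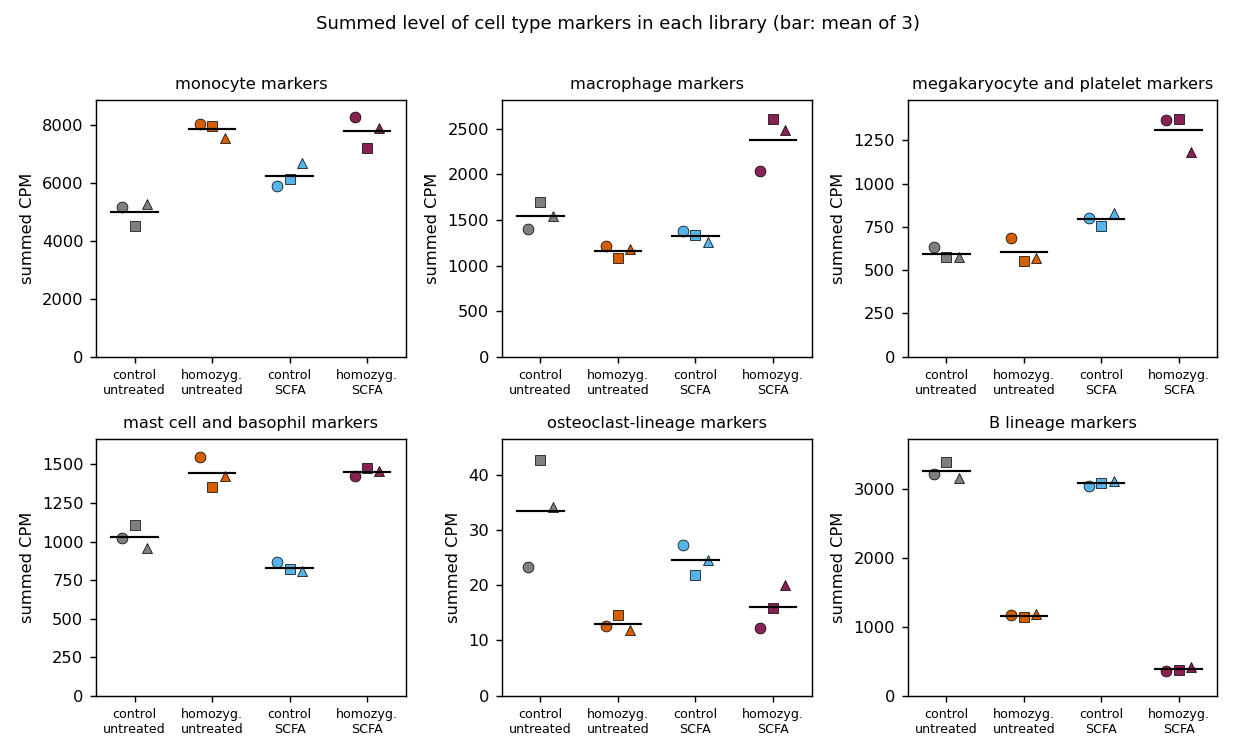
Summed CPM of 6 marker lists in each library (points) with the mean of 3 libraries (bars), for the 4 groups on the x axis. Macrophage and megakaryocyte markers are highest in the homozygous SCFA libraries, at 2036 to 2608 and 1184 to 1372, and B lineage markers are lowest there, at 360 to 413.

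Traf6, the ubiquitin ligase downstream of RANK, was highest in SCFA-treated controls, and under SCFA it was called lower in homozygous mice while 4 of the other genes were called higher. It was at 65.6, 78.4 and 85.1 CPM in control untreated and at 88.1, 80.1 and 72.1 CPM in homozygous untreated libraries. SCFA-treated controls were at 104, 119 and 107 CPM and SCFA-treated homozygous mice at 73.6, 66.2 and 70.1 CPM. Only the control SCFA libraries stood apart from the other 3 groups, which overlapped. Under SCFA, Traf6 was 1.57-fold lower in homozygous mice (log2 fold change -0.65 ± 0.13, adjusted p = 0.00357). In controls it rose with SCFA by 0.53 ± 0.13 (adjusted p = 0.0135), a call lost without control SCFA 2 (0.0527) or 3 (0.0518). In homozygous mice its SCFA difference was -0.19 ± 0.13 (adjusted p = 0.391), and the interaction was -0.72 ± 0.18 (0.0123).

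Src, the kinase of the osteoclast's ruffled border, was the least abundant of the 8 tested genes in CPM, with 20 to 110 counts per library. It was at 1.14, 1.99 and 1.71 CPM in control untreated and at 1.90, 2.11 and 1.45 CPM in homozygous untreated libraries. Control SCFA libraries were at 2.28, 2.70 and 2.61 CPM and homozygous SCFA libraries at 4.08, 5.62 and 4.85 CPM. Both SCFA groups lay above both untreated groups, and the untreated ones overlapped. In control mice the SCFA difference was 0.64 ± 0.35 on the log2 scale and was not called (edgeR adjusted p = 0.192). Groups did not overlap in that comparison for 38.5% of all tested genes. Src rose 2.66-fold with SCFA in homozygous mice (log2 fold change 1.41 ± 0.34, adjusted p = 0.0189), a call lost without homozygous untreated 3 (0.0577) or homozygous SCFA 2 (0.0741) or 3 (0.0555), or with no filter on low counts (0.0671). Under SCFA the genotype difference was 0.94 ± 0.34 (adjusted p = 0.0709). It passed with DESeq2 (0.0319), with limma-voom (0.0106), with only the compared libraries (0.0433) and without control untreated 1 (0.0413), within a range over all alternatives of 0.0106 to 0.266. The interaction was 0.77 ± 0.48 (adjusted p = 0.261).

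**Figure D4:**
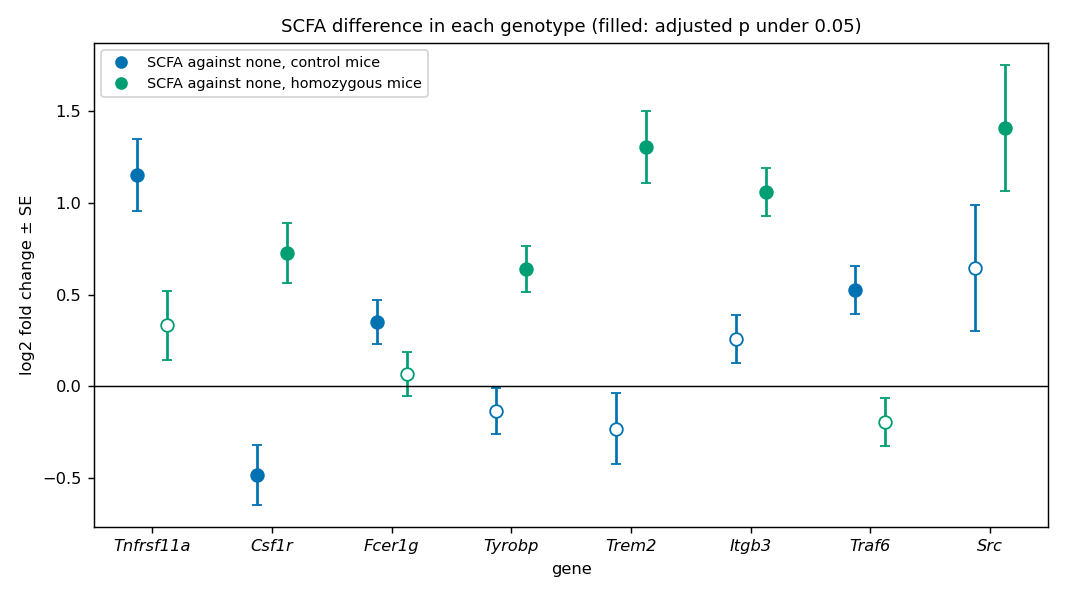
SCFA difference of each tested gene (log2 fold change ± SE, y axis) in control and in homozygous mice, with filled points for adjusted p under 0.05. Csf1r lies at -0.48 in control and 0.73 in homozygous mice, Trem2 reaches 1.30 and Src 1.41 in homozygous mice, and Traf6 lies at 0.53 in control and -0.19 in homozygous mice.

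The genes around the 9 in the pathway were described from lists of ligands, receptors, kinases and effectors. Of the ligands and the decoy receptor, Tnfsf11, which encodes RANKL, had 0 counts in 7 libraries and at most 15, and Tnfrsf11b, which encodes osteoprotegerin, had at most 34. Csf1, the ligand of Csf1r, was measured at 284 to 713 counts per library, and neither of the 2 tested of these 5 genes was called with genotype. With SCFA in control mice Csf1 was called higher, as were 8.89% of all tested genes. Stromal, bone and T lineage cells are the main makers of RANKL.

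The list of ITAM-coupled receptors had 19 tested genes, among them Hcst (DAP10), itself an adaptor, and the inhibitory receptors Pirb and Fcgr2b. Without SCFA 9 were higher with genotype (6.69% of all tested genes) and 1 lower (8.13%). Under SCFA 8 were higher (8.89%) and 1 lower (8.47%), with median differences of 0.47 and 0.22 on the log2 scale. These shares of all genes hold for the lists that follow too. Only Fcgr1, Fcgr4 and Sirpb1a were called higher both without and under SCFA. The interaction was called higher for 4 and lower for 4 (25.1% of all genes called). Fcgr4, an activating IgG receptor, rose from 27.9 ± 1.38 to 52.0 ± 6.74 CPM without SCFA (log2 fold change 0.90, adjusted p = 7.6e-04), and Clec4e (Mincle), a receptor for mycobacterial lipids, rose by 1.02 (0.00637). Pira2 was lower there, by -0.64 (adjusted p = 0.0207), a call lost without control untreated 2 (0.0787) or 3 (0.0628) or homozygous untreated 1 (0.0718) or 2 (0.0762), or with only the compared libraries (0.0736). Under SCFA Hcst (DAP10) rose from 17.9 to 35.1 CPM (0.97, adjusted p = 0.00677) and Fcgr3 by 0.53 (0.00822). Siglech, a marker of plasmacytoid dendritic cells, was 20.2 against 124 CPM (-2.61, adjusted p = 3.0e-07).

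Downstream of the ITAMs 17 kinases and effectors were tested, among them the phosphatases Inpp5d and Ptpn6, both called lower with genotype without SCFA. With genotype 1 was higher and 8 were lower without SCFA (14.8% of all genes called in either direction), and 4 were higher and 3 lower under SCFA (17.4%). The interaction was called higher for 9 and lower for 2 (25.1%). Syk, the kinase that binds the ITAMs, fell from 387 ± 98.9 to 232 ± 8.69 CPM without SCFA (log2 fold change -0.74, adjusted p = 0.00795). Under SCFA its genotype difference was 0.01 and not called (edgeR adjusted p = 0.987), and its interaction was 0.75 (0.0236). Blnk, a B cell adaptor also used by osteoclasts, fell from 182 ± 26.0 to 75.5 ± 4.66 CPM without SCFA (-1.27, adjusted p = 7.3e-05) and stood at 17.7 against 227 CPM under it (-3.68, 1.5e-09). The 14 B lineage markers moved with Blnk, summing to 3169 to 3403 CPM in control untreated, 1138 to 1187 in homozygous untreated, 3054 to 3126 in control SCFA and 360 to 413 in homozygous SCFA libraries. Under SCFA, Card9 rose by 1.16 (adjusted p = 0.00112) and Fgr, a Src-family kinase of myeloid cells, by 0.89 (0.00277). Vav3 was higher without SCFA (0.48, adjusted p = 0.0338), a call lost without control untreated 2 (0.155) or 3 (0.0571) or homozygous untreated 2 (0.146) or 3 (0.0624), or with only the compared libraries (0.0894). Btk was lower under SCFA (-0.51, adjusted p = 0.0138), a call lost without control SCFA 2 (0.0867) or homozygous SCFA 2 (0.0545) or 3 (0.0729).

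Of 14 genes below Csf1r 1 was lower with genotype and none higher without SCFA (14.8% of all genes called). Under SCFA 2 were higher and 4 lower (17.4%), and the interaction was called higher for 3 and lower for 2 (25.1%). Mapk3 (ERK1) rose by 0.88 on the log2 scale under SCFA (adjusted p = 0.00351) and Cblb, a ubiquitin ligase that restrains receptor signalling, was lower by -1.15 (8.0e-04). Rac2 was lower without SCFA (-0.56, adjusted p = 0.0192; lost without control untreated 2, 0.0583, or homozygous untreated 1, 0.0646, or 2, 0.106, or with only the compared libraries, 0.0638) and higher under it (0.62, 0.00835), with an interaction of 1.18 (0.00178). Pik3ca was lower under SCFA (-0.64, adjusted p = 0.0125), a call lost without control SCFA 2 (0.0667) or 3 (0.0737) or homozygous SCFA 2 (0.078) or 3 (0.0987).

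Of 20 genes between RANK and its kinases 6 were lower with genotype and none higher without SCFA (14.8% of all genes called), and 2 were higher and 1 lower under it (17.4%). Tab1, a partner of the kinase TAK1, was at 9.34 against 24.7 CPM without SCFA (-1.40, adjusted p = 0.00399), with an interaction of 2.18 (0.00181). Traf2 was lower without SCFA (-0.84, adjusted p = 0.0149; lost without control untreated 2, 0.0637, or homozygous untreated 1, 0.0627, or 2, 0.077). Under SCFA it was higher (0.65, adjusted p = 0.0387), lost without any library of the SCFA groups other than homozygous SCFA 1 (0.0598 to 0.126) and without control untreated 3 (0.0522). Rela, an NF-kB subunit, was higher (0.71, adjusted p = 0.0201), lost without control SCFA 2 (0.0511) or 3 (0.0847) or homozygous SCFA 2 (0.071) or 3 (0.0647). Ikbkg (NEMO) was lower (-0.46, adjusted p = 0.0171), lost without control SCFA 3 (0.113) or homozygous SCFA 2 (0.0818) or 3 (0.0629), or with no filter on low counts (0.0700).

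Among 14 partners of Itgb3 and adhesion genes 1 was higher and 5 were lower with genotype without SCFA (14.8% of all genes called), and 7 were higher and none lower under it (17.4%). Their median was -0.48 without and 0.47 under SCFA, and the interaction was called higher for 8 and lower for none (25.1%). Csk, the kinase that inhibits Src, fell from 58.5 ± 12.6 to 24.8 ± 3.26 CPM without SCFA (log2 fold change -1.24, adjusted p = 0.0014), and Itgb5 by 0.89 on the log2 scale (0.00541). Cdc42 was higher there (0.45, adjusted p = 0.0342), but lost its call in 8 of 12 fits without 1 library, with a p of up to 0.134 without control untreated 2, and with only the compared libraries (0.112). Under SCFA, Fermt3 (kindlin-3), which activates integrins of blood cells, rose by 0.89 (adjusted p = 0.0032) and Itga2b as given above. The interaction of Itga2b was 2.12 (adjusted p = 7.5e-04), that of Card9 1.56 (0.00213) and that of Pira2 1.15 (0.00419). It was negative for Siglech, at -2.21 (adjusted p = 1.2e-04), Blnk, at -2.41 (6.2e-06), Pik3ca, at -0.997 (0.0068) and Ikbkg, at -0.64 (0.0152; lost with no filter on low counts, 0.0626).

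**Figure D5:**
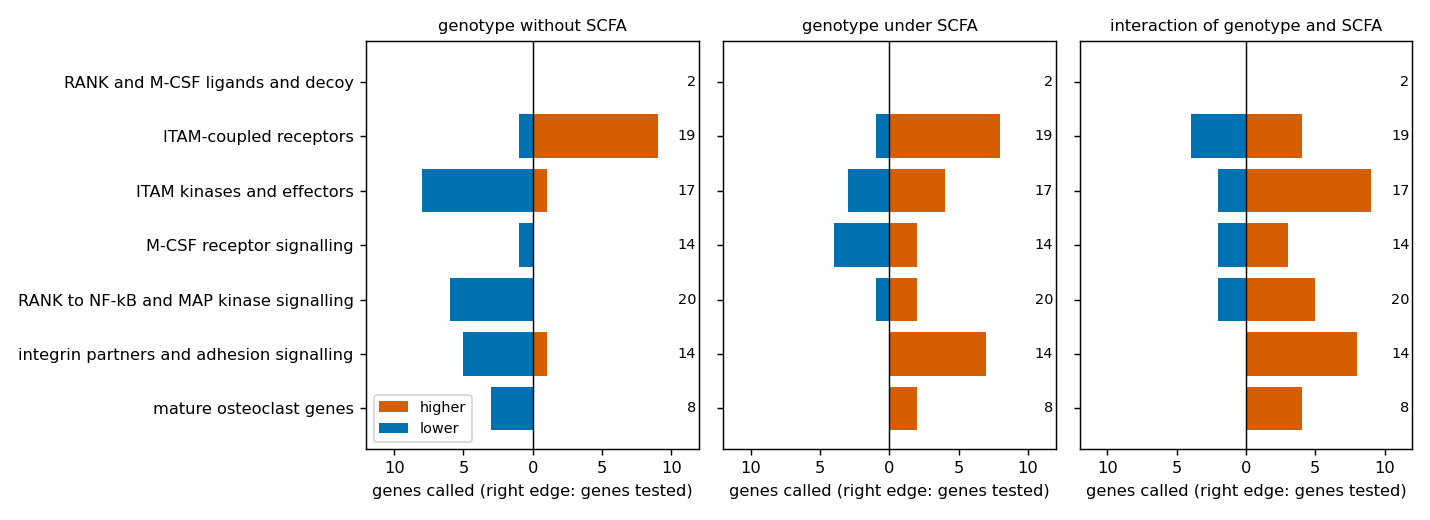
Number of genes called higher and lower in each list of pathway genes, for genotype without SCFA, for genotype under SCFA and for their interaction. In the list of ITAM-coupled receptors, 9 of 19 are called higher without SCFA and 8 of 19 under it, only partly the same genes. Integrin partners are called lower without SCFA (5 of 14) and higher under it (7 of 14).

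Of 8 tested genes of the mature osteoclast 3 were lower with genotype without SCFA and none higher (14.8% of all genes called): Acp5 (TRAP), at 10.8 ± 0.574 against 30.9 ± 9.86 CPM (log2 fold change -1.52, adjusted p = 0.00107), Nfatc1, at 92.7 against 143 CPM (-0.62, 0.00623), and Mmp9. Under SCFA 2 were higher and none lower (17.4%). Tcirg1, a proton pump subunit, was higher by 0.92 (adjusted p = 0.00419) and Mmp9 by 0.65 (0.0101), with an interaction of 1.28 for Mmp9 (0.00181). Mmp9 is also abundant in neutrophils. The 6 osteoclast-lineage markers summed to 23.3 to 42.7 CPM in control untreated, 11.9 to 14.7 in homozygous untreated, 21.8 to 27.3 in control SCFA and 12.3 to 19.95 in homozygous SCFA libraries, and were mostly Acp5. Calcr was at 0 in 10 libraries, Dcstamp in 5 and Ocstamp in 4, with at most 11 counts in any of them, so these genes, which mark fusing and mature osteoclasts, were near the limit of detection.

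Genes whose level ran closest to a member over the 12 libraries were found among 9970 genes by Pearson's r of log2 CPM. The libraries fall into 4 groups, so these are descriptions without a p. Tnfrsf11a ran closest to Mpeg1 (r = 0.93, rho = 0.75) and Pon3 (0.91, 0.90), and Csf1r to Fam234a (0.98, 0.96) and Emilin2 (0.98, 0.97). For Fcer1g they were Fpr1 (0.97, 0.96) and Aif1 (0.97, 0.94), and for Tyrobp Lst1 (0.98, 0.92) and Slpi (0.97, 0.95). Trem2 ran closest to Inka1 (0.96, 0.97) and Gp5 (0.95, 0.90), a platelet glycoprotein, and Itgb3 to Hgsnat (0.96, 0.92) and Dusp1 (0.95, 0.92). Traf6 came closest to Ikzf1 (0.94, 0.88) and Mfsd4a (0.91, 0.85), and Src to Hcar2 (0.96, 0.93) and H2-Aa (0.96, 0.94). Among the 28 pairs of the 8 genes, r was 0.91 for Itgb3 and Src, 0.84 for Tyrobp and Trem2 and 0.82 for Csf1r and Tyrobp. It was 0.74 for Tnfrsf11a and Fcer1g but 0.17 for Tnfrsf11a and Csf1r, and -0.63 for Csf1r and Traf6.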

How the data were processed

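RNA was measured in 12 bulk libraries of mouse bone marrow, 3 in each of 4 groups. The submitters' processing notes name STAR, featureCounts and mm10, without versions. Which annotation and which strand option featureCounts had is not given in these sources. Raw counts for each symbol, with no normalization by the authors, make up the deposited table. The 9 genes and the lists of pathway genes and markers were chosen with earlier results of these data known. Libraries were scaled by TMM (edgeR 4.0.16, R 4.3.3), genes with low counts were removed by filterByExpr by group, and 15674 genes were fitted with 4 group means in 1 quasi-likelihood model. P-values were adjusted by the Benjamini-Hochberg method over all of them and a gene was called at an adjusted p under 0.05, two-sided. CPM are counts scaled to 1e6 of the TMM-adjusted library size. Standard errors are those of the log2 fold change. Genes were named as follows: all 9 members; of each pathway list, up to 2 called genes with the smallest p in each direction of both genotype comparisons and 1 in the interaction; of markers, those of lists that moved with a member. Exon lengths and positions come from GENCODE M21 (mm10), in which 96.4% of the symbols were found, and promoters from RefSeq (GRCm38.p6). Alternatives were other scalings, no filter, DESeq2 1.42.0, limma-voom 3.58.1 with quality weights, fewer libraries, a replicate block and leaving out each library. The model code was tested on simulated data. Members with no promoter entry were Csf1r, Tyrobp and Itgb3. Depth of 16954355 to 20748995 counts per library sets a floor of 3 counts for a count of 0.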

Additional observations from a re-analysis of the deposited data

Results flagged for a closer look

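The genotype difference changed with SCFA for 6 of the 8 tested genes in the test of that change itself (edgeR quasi-likelihood, adjusted p under 0.05). Of all tested genes, 25.1% were called in the same test. The change on the log2 scale was 1.54 for Trem2, 1.21 for Csf1r, 0.80 for Itgb3, 0.77 for Tyrobp, -0.72 for Traf6 and -0.82 for Tnfrsf11a. The first 5 kept the call in each of the 12 fits that left out 1 library, and Tnfrsf11a lost it in 9 of 12. The untreated and the SCFA libraries carry different dates, so this change cannot be told apart from one with date.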

How the results depend on the processing

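Of 792 refitted log2 fold changes of the 8 genes, 730 kept direction and call, 53 lost the call, 6 gained it and 3 changed sign near 0: over the fits without 1 library, the untreated genotype difference ran from -0.0516 to 0.132 for Traf6 and from -0.0454 to 0.314 for Src (both lowest without control untreated 1), and the SCFA difference of Fcer1g in homozygous mice from -2.0e-04 (without homozygous untreated 3) to 0.135. Counts of the 8 genes called ranged over the fits without 1 library as follows: higher with genotype without SCFA 1 to 2 (2 with all), lower 0 to 3 (1); higher under SCFA 3 to 5 (4); with SCFA in controls higher 1 to 3 (3), lower 0 to 1 (1); in homozygous mice higher 3 to 5 (5); interaction lower 1 to 2 (2). With only the compared libraries, untreated genotype gave 1 higher and 0 lower, and SCFA in controls 2 higher and 0 lower; RLE scaling also gave 0 lower there, and no filter on low counts 2 higher.

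To look for pairing, each group's mean was subtracted from the log2 CPM of its libraries. These deviations were correlated at -0.11 to 0.04 between same-numbered replicates of different groups, which thus did not pair. Not every library's deviations correlated best with those of its own number. With the replicate block, SCFA in controls had 2 of the 8 genes higher (3 without it) and 0 lower, and the interaction 1 lower, as Fcer1g (0.0523), Csf1r (0.0532) and Tnfrsf11a (0.0593) were not called; over all genes the untreated genotype calls went from 2323 to 2067 and the interaction from 3938 to 3715.

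Over all genes, the 2323 called with genotype without SCFA became 770 to 4333 without 1 library, 914 with only the compared libraries and 3922 with limma-voom; the lowest was without homozygous untreated 2 and the highest without control untreated 1. Under SCFA 2722 became 1431 without control SCFA 3 and 4762 with limma-voom. For SCFA in control mice 3432 became 613 without control SCFA 3 and 2035 with only the compared libraries. In homozygous mice 1501 became 743 without homozygous SCFA 3, 2276 with DESeq2 and 2988 with limma-voom. For the interaction 3938 became 2455 without homozygous SCFA 2. Depth limits Oscar and Src, with 0 to 12 and 20 to 110 counts.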
